A study of Homo sapiens with 6 samples.

Results

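The 54 genes described here encode the machinery that marks DNA replication origins, loads and starts the replicative helicase, and copies DNA at the fork. They were listed by name from what each protein does, with earlier results of these data known, so the counts below describe the list and are no independent evidence of its direction: 6 subunits of the origin recognition complex, 3 licensing factors, the 6 subunits of the MCM2-7 helicase, the related helicase MCM8, 11 factors of helicase activation and origin firing, 4 subunits each of DNA polymerases alpha, delta and epsilon, 6 genes of the sliding clamp and its loader, 3 enzymes of Okazaki fragment maturation, 3 subunits of the single-strand binding protein RPA, and 3 enzymes of nucleotide supply. All 54 had enough reads to be tested, among 15765 genes tested of 58219 gene identifiers counted.

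RNA was measured by sequencing in U2OS cells, an established human osteosarcoma line. One group of 3 libraries came from cells expressing a short hairpin RNA (shRNA) against E4F1, and the other group of 3 from cells expressing a scramble control shRNA, so both groups were infected and both carried an shRNA. Per the labels, infection lasted 24 h, puromycin selection followed for 48 h, cells were taken at 72 h, and polyadenylated RNA from 3 independent pools of infected cells was sequenced. E4F1 is a zinc finger protein that acts as a transcription factor and as a ubiquitin ligase. The p-values below rest on how far the 3 pools within a group differ from each other.

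A replication origin is first bound by the origin recognition complex, which, with CDC6 and CDT1, loads the ring-shaped MCM2-7 helicase in an inactive form during G1 phase. In S phase the kinase CDC7 with its activator DBF4, and cyclin-dependent kinases acting through TICRR and TOPBP1, recruit CDC45 and the GINS complex, which turn the ring into a working helicase. Polymerase alpha with primase then lays down primers, polymerase epsilon and polymerase delta extend them, and the clamp PCNA, opened and closed by the RFC loader, holds the polymerases on DNA. Many of these genes are classic targets of the E2F transcription factors, and their RNA varies with the share of cells passing through S phase.

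The targeted gene was read first. E4F1 had 51, 53 and 41 reads in the E4F1 shRNA libraries 1 to 3, against 233, 286 and 297 reads in control libraries 1 to 3. Its level was 3.18, 3.15 and 2.5 CPM (the reads of a gene scaled to the reads in genes of its library) in E4F1 shRNA cells, against 15.6, 17.7 and 19.1 CPM in control cells, a log2 fold change of -2.57 ± 0.14 (SE; adjusted p = 7.66e-10, edgeR quasi-likelihood test with Benjamini-Hochberg adjustment). The 6 libraries held 14947085 to 16892139 reads in genes. Of the markers of the osteosarcoma line, COL1A1 stood at 1040 to 1120 CPM in E4F1 shRNA cells and 1170 to 1280 CPM in control cells, and RUNX2 at 25.4 to 28.4 CPM in E4F1 shRNA cells against 28.0 to 33.2 CPM in control cells, while COL1A2 stayed at or below 0.998 CPM and the late osteoblast gene BGLAP had at most 3 reads in any library. The 6 blood cell markers summed to 3.03 to 4.46 CPM in E4F1 shRNA cells and 2.28 to 6.87 CPM in control cells, with CD3E at 0 in every library. The top of the control range was control library 2, where LYZ alone stood at 4.27 CPM, against 0.268 and 0.257 CPM in control libraries 1 and 3. LYZ stood at 0.998, 1.55 and 1.46 CPM in E4F1 shRNA libraries 1 to 3. The 6 epithelial markers summed to 20.7 to 24.2 CPM in E4F1 shRNA cells against 23.9 to 28.2 CPM in control cells, and the 5 endothelial markers to 3.63 to 3.81 CPM in E4F1 shRNA cells against 3.6 to 4.22 CPM in control cells.

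The replication genes that changed all changed in the same direction. Of the 54 replication genes, 27 were higher in E4F1 shRNA cells at an adjusted p under 0.05 (edgeR), and 27 did not pass. That is 50.0% of the members, against 14.4% of all genes tested that were higher; 28.9% of all genes tested changed in either direction. No member was lower, against 14.4% of all genes tested: 0 members were lower at an unadjusted p under 0.05 too, and DESeq2 and limma-voom also called 0. The median log2 fold change of the members was 0.19, with a range of -0.32 to 0.85, against a median of -0.01 over all genes tested. In 29 of 54 members every E4F1 shRNA library stood above every control library, against 20.7% of all genes tested. In bulk RNA, more cells in a phase of the cell cycle and more RNA of these genes per cell cannot be told apart.

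**Figure D1:**
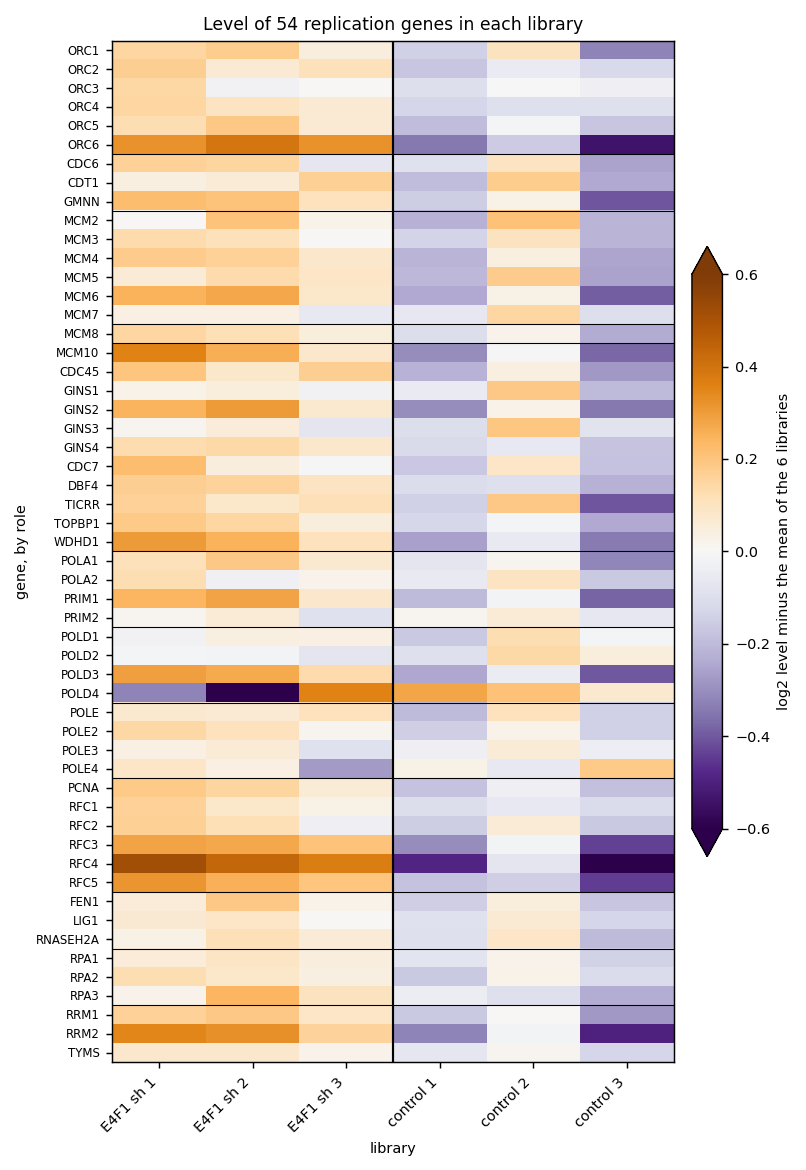
Each row is 1 of the 54 replication genes, grouped by role, and each column is 1 library; colour gives the log2 level minus the mean of the 6 libraries (orange above, purple below). ORC6, RFC4 and RRM2 separate the groups most visibly, and control library 2 is the highest control library in 51 of 54 rows.

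The 3 control libraries did not sit together, and this was not particular to the members. Over all genes tested, the main axis of difference between libraries (first principal component, 53.9% of the variance) put control libraries 1 to 3 at -20.9, -9.85 and -31.1. The E4F1 shRNA libraries 1 to 3 lay at 22.7, 21.7 and 17.5 on it. The library orders counted next were not counted over all genes tested. Control library 2 was the highest control in 51 of 54 members, it stood at or above the lowest E4F1 shRNA library in 25 members, and it was above all other 5 libraries in 10. Control library 3 was the lowest control in 42 members, and E4F1 shRNA library 3 the lowest of its own group in 40. The log2 deviation of the median member from the mean of the 6 libraries was 0.145, 0.119 and 0.061 in E4F1 shRNA libraries 1 to 3, against -0.148, 0.026 and -0.206 in control libraries 1 to 3. The median over all genes tested, with a small constant added, was 0.004, -0.003 and 0.005 in E4F1 shRNA libraries. In control libraries that median was 0.001, 0.009 and 0.005. Scaling between libraries keeps the all-gene median small. Summed over the members, the level was 7566, 7545 and 7074 CPM in E4F1 shRNA cells and 6155, 6986 and 5878 CPM in control cells, so control library 2 came close to E4F1 shRNA library 3 while control library 3 was lowest.

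Without control library 2, 43 of the 54 members were higher in E4F1 shRNA cells (edgeR), against 17.6% of all genes tested in that fit. All 27 earlier calls were kept, and 16 were added: CDC6, CDC7, CDT1, LIG1, MCM2, MCM3, MCM5, ORC1, POLE, POLE2, RFC2, RNASEH2A, RPA1, RPA2, TICRR and TYMS. The median log2 fold change of the members was then 0.27. Control library 2 was the highest control in 51 of 54 members, so leaving it out raises nearly every member's fold change by construction. Calls gained without it, here and below, are a description and no independent support. The labels give no reason to leave this library out, and all values below use the 3 control libraries unless stated.

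**Figure D2:**
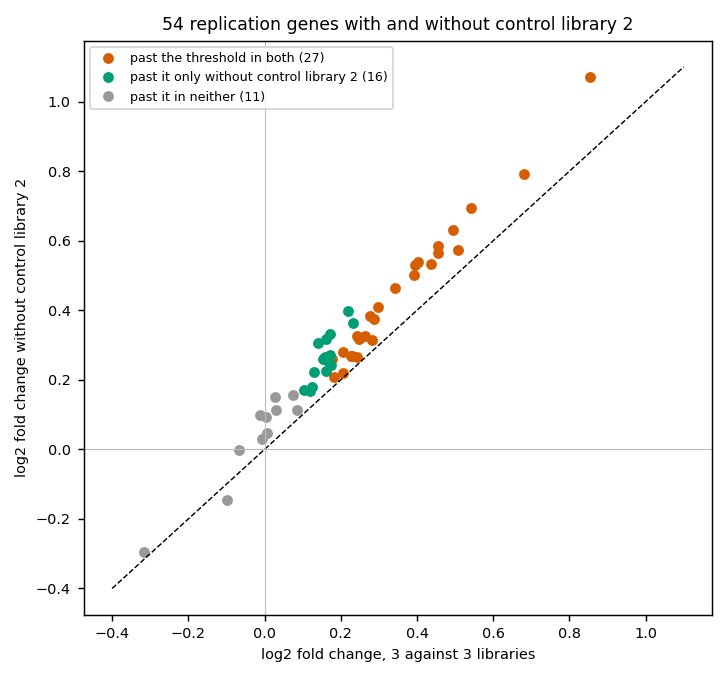
Log2 fold change of E4F1 shRNA over control shRNA for each of the 54 genes, with all 3 control libraries (horizontal axis) and without control library 2 (vertical axis); the dashed line marks equal values. All points but POLE4 lie above the line, with 27 genes past the threshold in both fits, 16 only without control library 2 and 11 in neither. Control library 2 is the highest control in 51 of the 54 genes, so a shift above the line follows by construction.

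The origin recognition complex was the earliest-acting group, and 4 of its 6 genes were higher in E4F1 shRNA cells. ORC6, the smallest subunit and the one least tightly held in the human complex, changed most. ORC6 (chr16:46689643-46698394, GRCh38) had 50.5, 53.1 and 50.6 CPM in E4F1 shRNA cells, against 31.8, 36.3 and 27.9 CPM in control cells. The 3 E4F1 shRNA libraries lay close together and all above the highest control. This was 1.61-fold, a log2 fold change of 0.68 ± 0.08 (SE; adjusted p = 1.2e-05, edgeR), and it placed ORC6 at rank 293 of 13148 protein-coding genes by log2 fold change.

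The ORC6 promoter window of RefSeq (GRCh38.p14, chr16:46689409-46689708, plus strand, 250 bases before to 50 after the start) is shown because ORC6 moved most of its complex while its window has none of the E2F core letters searched; capitals mark its 2 CCAAT boxes, 1 on each strand, 104 and 68 bases before the start.
ORC6: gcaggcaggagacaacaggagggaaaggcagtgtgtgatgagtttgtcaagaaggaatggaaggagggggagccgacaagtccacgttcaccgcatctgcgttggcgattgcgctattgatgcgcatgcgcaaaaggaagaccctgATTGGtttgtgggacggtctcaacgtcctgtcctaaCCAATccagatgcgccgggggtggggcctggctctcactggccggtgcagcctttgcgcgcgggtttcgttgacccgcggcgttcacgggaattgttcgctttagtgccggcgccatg

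The other called subunits had smaller fold changes. ORC5 had 56.0, 58.5 and 53.7 CPM in E4F1 shRNA cells and 44.9, 51.0 and 45.6 CPM in control cells (log2 fold change 0.25 ± 0.07 SE, adjusted p = 0.0108, edgeR). ORC2, a core subunit, had 64.3, 59.7 and 61.6 CPM in E4F1 shRNA cells against 50.7, 55.3 and 52.6 CPM in control cells (0.23 ± 0.06 SE, adjusted p = 0.0112, edgeR). ORC4 had 65.4, 63.0 and 61.6 CPM in E4F1 shRNA cells against 54, 55.4 and 55.4 CPM in control cells (0.20 ± 0.06 SE, adjusted p = 0.0149, edgeR). In these 3 genes the groups did not overlap, but the changes were all small and the 3 calls were lost when an offset for GC content was added to the fit (adjusted p = 0.086 for ORC5, 0.135 for ORC2 and 0.342 for ORC4). ORC1, the subunit that varies with the cell cycle in human cells, had 48.5, 49.5 and 45.2 CPM in E4F1 shRNA cells and 39.7, 47.1 and 35.0 CPM in control cells, with control library 2 inside the E4F1 shRNA range, and did not pass (0.23 ± 0.09 SE, adjusted p = 0.0554, edgeR). ORC3 stood at 54.5, 48.6 and 49.4 CPM in E4F1 shRNA cells against 46.2, 49.2 and 48.3 CPM in control cells.

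Of the licensing factors, only GMNN passed, the gene for geminin, which binds CDT1 and blocks relicensing after S phase has begun. GMNN had 63.8, 62.9 and 58.8 CPM in E4F1 shRNA cells, against 49.1, 55.8 and 41.2 CPM in control cells. The groups were apart, with the 3 controls spread more widely than the E4F1 shRNA libraries (log2 fold change 0.34 ± 0.09 SE, adjusted p = 0.00608, edgeR). CDC6, the loader that joins the origin recognition complex, had 162, 160 and 138 CPM in E4F1 shRNA cells and 136, 154 and 121 CPM in control cells. CDT1, which brings the helicase to the origin, had 44.3, 44.8 and 48.3 CPM in E4F1 shRNA cells against 37.6, 48.6 and 36.4 CPM in control cells. In both genes control library 2 lay at or above part of the E4F1 shRNA range, and neither passed (adjusted p = 0.139 for CDC6 and 0.2 for CDT1, edgeR); both passed without that library. The test of whether GMNN moved more than CDT1 was not made.

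The 6 subunits of the MCM2-7 ring, which are built into the helicase in equal numbers, included 2 genes that were higher and 4 that did not pass; differences between subunits were not tested. MCM6 (chr2:135839626-135876426, GRCh38) had 150, 152 and 134 CPM in E4F1 shRNA cells, against 106, 129 and 96.0 CPM in control cells (1.32-fold; log2 fold change 0.40 ± 0.08 SE, adjusted p = 0.00186, edgeR). MCM4 had 363, 358 and 338 CPM in E4F1 shRNA cells against 276, 329 and 269 CPM in control cells (0.28 ± 0.07 SE, adjusted p = 0.00526, edgeR). In both genes every E4F1 shRNA library was above control library 2, the highest control. MCM3 had 297, 292 and 271 CPM in E4F1 shRNA cells and 247, 290 and 233 CPM in control cells, so that control library 2 reached the E4F1 shRNA range (0.16 ± 0.07 SE, adjusted p = 0.0948, edgeR). MCM2 had 126, 145 and 128 CPM in E4F1 shRNA cells against 108, 146 and 109 CPM in control cells (adjusted p = 0.266, edgeR), and MCM5 had 132, 139 and 134 CPM in E4F1 shRNA cells against 110, 143 and 106 CPM in control cells (adjusted p = 0.139, edgeR). In both genes control library 2 was the highest of all 6 libraries. MCM7 had 334, 335 and 313 CPM in E4F1 shRNA cells against 312, 362 and 305 CPM in control cells, and its log2 fold change was 0.00 ± 0.06 (SE; adjusted p = 0.965, edgeR). MCM7 was also not past the threshold without control library 2 (log2 fold change 0.09, adjusted p = 0.209), unlike MCM2, MCM3 and MCM5. MCM8, a helicase of recombination rather than a ring subunit, had 119, 117 and 111 CPM in E4F1 shRNA cells and 100, 109 and 91.6 CPM in control cells (0.21 ± 0.06 SE, adjusted p = 0.0221, edgeR); its call was lost with the GC offset (adjusted p = 0.137) and in 4 of the 6 fits that leave out 1 library.

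Helicase activation and origin firing held 11 genes, of which 7 were higher in E4F1 shRNA cells. WDHD1, which ties the helicase to polymerase alpha, had 122, 117 and 106 CPM in E4F1 shRNA cells, against 82.2, 94.8 and 77.8 CPM in control cells (1.35-fold; log2 fold change 0.44 ± 0.07 SE, adjusted p = 0.000259, edgeR). MCM10, which is needed for the helicase to start, had 142, 132 and 117 CPM in E4F1 shRNA cells against 89.7, 110 and 85.1 CPM in control cells (1.37-fold; 0.46 ± 0.08 SE, adjusted p = 0.000725, edgeR). DBF4, the activator of the CDC7 kinase, had 144, 142 and 136 CPM in E4F1 shRNA cells against 118, 120 and 109 CPM in control cells (0.28 ± 0.06 SE, adjusted p = 0.00113, edgeR). In these 3 genes no control library reached an E4F1 shRNA library, although for MCM10 the gap between E4F1 shRNA library 3 and control library 2 was small beside the spread of each group. CDC7 itself, the kinase, had 57.2, 50.6 and 48.9 CPM in E4F1 shRNA cells and 43.7, 52.0 and 43.3 CPM in control cells and did not pass (adjusted p = 0.122, edgeR).

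Of the 4 GINS subunits, which join CDC45 and MCM2-7 in the working helicase, 2 were higher and 2 did not pass. GINS2 had 73.0, 75.9 and 64.8 CPM in E4F1 shRNA cells, against 50.0, 62.9 and 48.6 CPM in control cells (log2 fold change 0.40 ± 0.09 SE, adjusted p = 0.00222, edgeR). GINS4 had 93.5, 94.2 and 90.3 CPM in E4F1 shRNA cells against 79.1, 82.2 and 75.7 CPM in control cells (0.23 ± 0.06 SE, adjusted p = 0.00557, edgeR). Both groups of libraries were apart in these genes. GINS1 had 71.0, 72.2 and 68.8 CPM in E4F1 shRNA cells and 67.4, 79.6 and 60.7 CPM in control cells. GINS3 had 38.8, 39.9 and 36.6 CPM in E4F1 shRNA cells against 35.9, 44.0 and 36.3 CPM in control cells, so the controls of both genes enclosed the E4F1 shRNA values. Of the partners that assemble the helicase, CDC45 had 88.7, 81.9 and 87.1 CPM in E4F1 shRNA cells and 66.5, 79.3 and 63.6 CPM in control cells (0.30 ± 0.07 SE, adjusted p = 0.00584, edgeR). TOPBP1, the scaffold that brings CDC45 and GINS in, had 205, 200 and 186 CPM in E4F1 shRNA cells against 166, 179 and 152 CPM in control cells (0.25 ± 0.06 SE, adjusted p = 0.0057, edgeR). TICRR, the kinase substrate that binds TOPBP1, had 86.4, 81.8 and 83.5 CPM in E4F1 shRNA cells against 69.9, 88.0 and 58.3 CPM in control cells, the widest control spread of the firing factors relative to its mean, and did not pass (0.22 ± 0.10 SE, adjusted p = 0.108, edgeR).

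**Figure D3:**
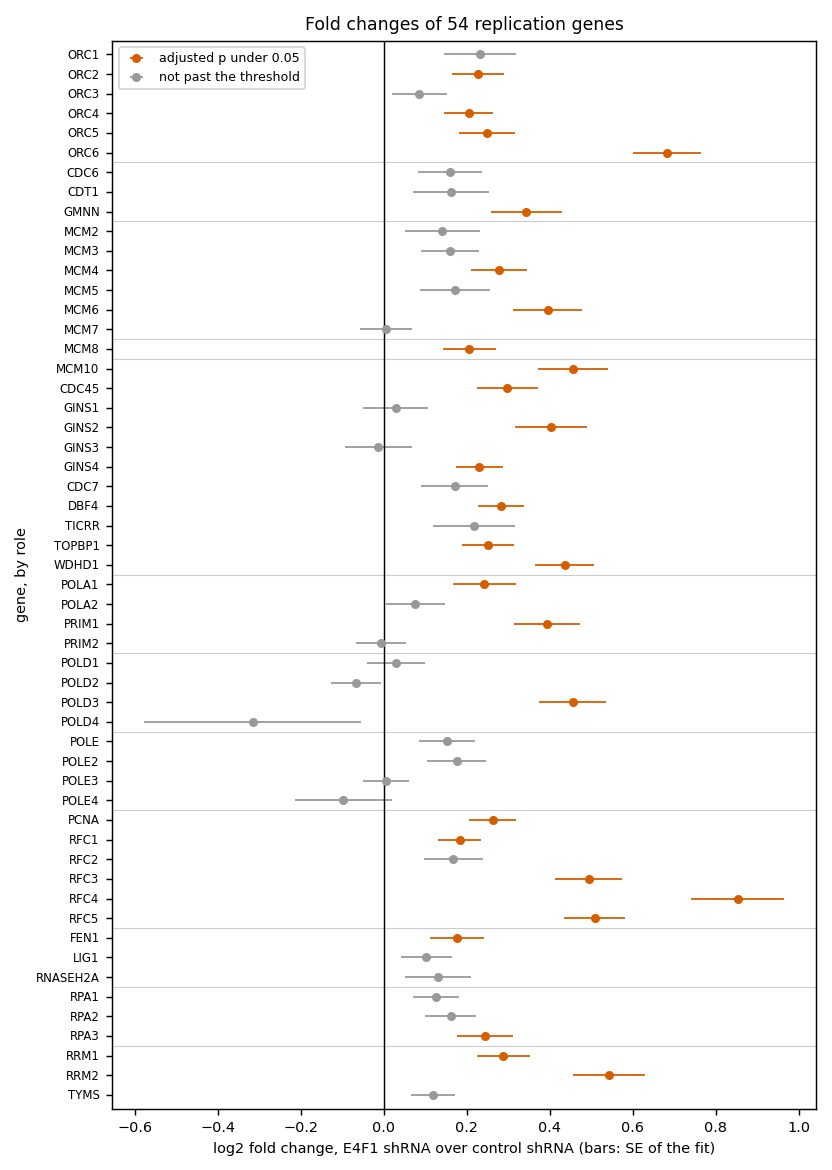
Log2 fold change of E4F1 shRNA over control shRNA for the 54 genes in order of role, with bars of 1 SE of the edgeR fit; orange marks the 27 genes at an adjusted p under 0.05. RFC4 (0.85) and ORC6 (0.68) lie farthest to the right, and POLD4 (-0.32), with the widest bar, farthest to the left.

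In polymerase alpha and primase, which make the primers, 2 of 4 subunits were higher. PRIM1, the catalytic primase subunit, had 101, 104 and 90.4 CPM in E4F1 shRNA cells, against 74.7, 84.9 and 65.8 CPM in control cells (1.31-fold; log2 fold change 0.39 ± 0.08 SE, adjusted p = 0.00142, edgeR). Its obligate partner PRIM2, the regulatory subunit, had 75.2, 77.8 and 70.4 CPM in E4F1 shRNA cells against 75.5, 77.8 and 71.3 CPM in control cells. The 3 numbered libraries of each group gave nearly equal PRIM2 values, and its log2 fold change was -0.01 ± 0.06 (SE; adjusted p = 0.944, edgeR). POLA1, the catalytic polymerase subunit, had 63.5, 66.9 and 61.7 CPM in E4F1 shRNA cells and 55.8, 59.5 and 47.1 CPM in control cells (0.24 ± 0.08 SE, adjusted p = 0.0237, edgeR), a call lost with the GC offset (adjusted p = 0.0877). POLA2, the accessory subunit, had 61.0, 55.1 and 56.8 CPM in E4F1 shRNA cells against 54, 59.9 and 50.0 CPM in control cells; 35.1% of its exon bases lie under another gene on the same strand, where reads are counted for neither gene.

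Of polymerase delta, which copies the lagging strand, POLD3 alone passed. POLD3, an accessory subunit that binds PCNA, had 59.3, 58.4 and 53.2 CPM in E4F1 shRNA cells, against 40.9, 47.0 and 36.7 CPM in control cells (1.37-fold; log2 fold change 0.46 ± 0.08 SE, adjusted p = 0.000493, edgeR). The groups were clearly apart. POLD1, the catalytic subunit, had 59.2, 61.7 and 61.6 CPM in E4F1 shRNA cells against 53.7, 65.5 and 59.6 CPM in control cells (0.03 ± 0.07 SE, adjusted p = 0.791, edgeR). POLD2, the subunit that bridges the others and the highest per kilobase of annotated exon, had 149, 148 and 142 CPM in E4F1 shRNA cells against 140, 165 and 155 CPM in control cells (-0.07 ± 0.06 SE, adjusted p = 0.433, edgeR). POLD4, the smallest subunit, was near the limit of detection at 1.37, 1.13 and 2.2 CPM in E4F1 shRNA cells against 2.07, 1.98 and 1.8 CPM in control cells, with as few as 19 reads in a library, and a difference of this size was not detectable at this depth (-0.32 ± 0.26 SE, adjusted p = 0.396, edgeR).

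In polymerase epsilon, which copies the leading strand, 0 of 4 subunits passed with edgeR; 2 of them, POLE and POLE2, were higher at an unadjusted p under 0.05, and neither DESeq2 nor limma-voom called any. POLE, the catalytic subunit, had 119, 118 and 122 CPM in E4F1 shRNA cells and 98.7, 122 and 102 CPM in control cells (adjusted p = 0.104, edgeR). POLE2 had 42.2, 41.1 and 38.7 CPM in E4F1 shRNA cells against 34.5, 38.9 and 34.6 CPM in control cells (adjusted p = 0.0771, edgeR). In both genes control library 2 alone reached the E4F1 shRNA range, and both passed without it. The histone-fold subunits POLE3 and POLE4 gave no such pattern. POLE3 had 176, 179 and 162 CPM in E4F1 shRNA cells and 168, 179 and 168 CPM in control cells, and POLE4 had 12.5, 12 and 9.7 CPM in E4F1 shRNA cells against 12, 11.3 and 13.4 CPM in control cells.

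The clamp and its loader held the largest changes, with 5 of 6 genes higher and a median log2 fold change of 0.38. RFC4 (chr3:186789880-186807058, GRCh38), a small subunit of the loader, had 79.4, 74.9 and 71.7 CPM in E4F1 shRNA cells, against 39.6, 52.7 and 32.6 CPM in control cells. Even the lowest E4F1 shRNA library was well above control library 2, and the controls themselves were widely spread. RFC4 was 1.81-fold higher, a log2 fold change of 0.85 ± 0.11 (SE; adjusted p = 3.04e-05, edgeR), which placed it at rank 134 of 13148 protein-coding genes; without control library 2 the value was 1.07. RFC5 had 74.9, 71.9 and 69.0 CPM in E4F1 shRNA cells and 53.1, 54.3 and 44.3 CPM in control cells (1.42-fold; 0.51 ± 0.07 SE, adjusted p = 7.55e-05, edgeR). RFC3 had 101, 100 and 95.5 CPM in E4F1 shRNA cells against 67.4, 82.0 and 61.1 CPM in control cells (1.41-fold; 0.49 ± 0.08 SE, adjusted p = 0.000238, edgeR). RFC4, RFC5 and RFC3 are, with RFC2, also subunits of the alternative loaders that handle clamps outside normal fork progression.

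RFC2, the remaining small subunit, had 90.1, 87.4 and 78.7 CPM in E4F1 shRNA cells and 72.3, 83.8 and 71.8 CPM in control cells, and did not pass (log2 fold change 0.17 ± 0.07 SE, adjusted p = 0.0839, edgeR). RFC1, the large subunit specific to the PCNA loader, had 250, 237 and 229 CPM in E4F1 shRNA cells against 209, 215 and 208 CPM in control cells (0.18 ± 0.05 SE, adjusted p = 0.0147, edgeR); with the GC offset its adjusted p was 0.146. PCNA, the clamp, had 400, 390 and 365 CPM in E4F1 shRNA cells against 310, 344 and 309 CPM in control cells (1.2-fold; 0.26 ± 0.06 SE, adjusted p = 0.0025, edgeR). The PCNA groups did not overlap, and control libraries 1 and 3 were nearly equal.

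The RFC4 promoter window of RefSeq (GRCh38.p14, chr3:186806433-186806732, minus strand) is shown because RFC4 changed most of the members; capitals mark its 2 E2F core matches, 10 bases before and 22 after the start, on opposite strands.
RFC4: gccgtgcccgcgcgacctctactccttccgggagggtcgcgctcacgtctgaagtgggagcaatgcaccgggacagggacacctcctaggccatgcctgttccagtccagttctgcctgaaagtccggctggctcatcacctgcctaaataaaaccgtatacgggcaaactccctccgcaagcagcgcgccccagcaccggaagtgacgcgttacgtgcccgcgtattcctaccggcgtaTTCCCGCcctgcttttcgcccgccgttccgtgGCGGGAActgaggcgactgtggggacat

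**Figure D4:**
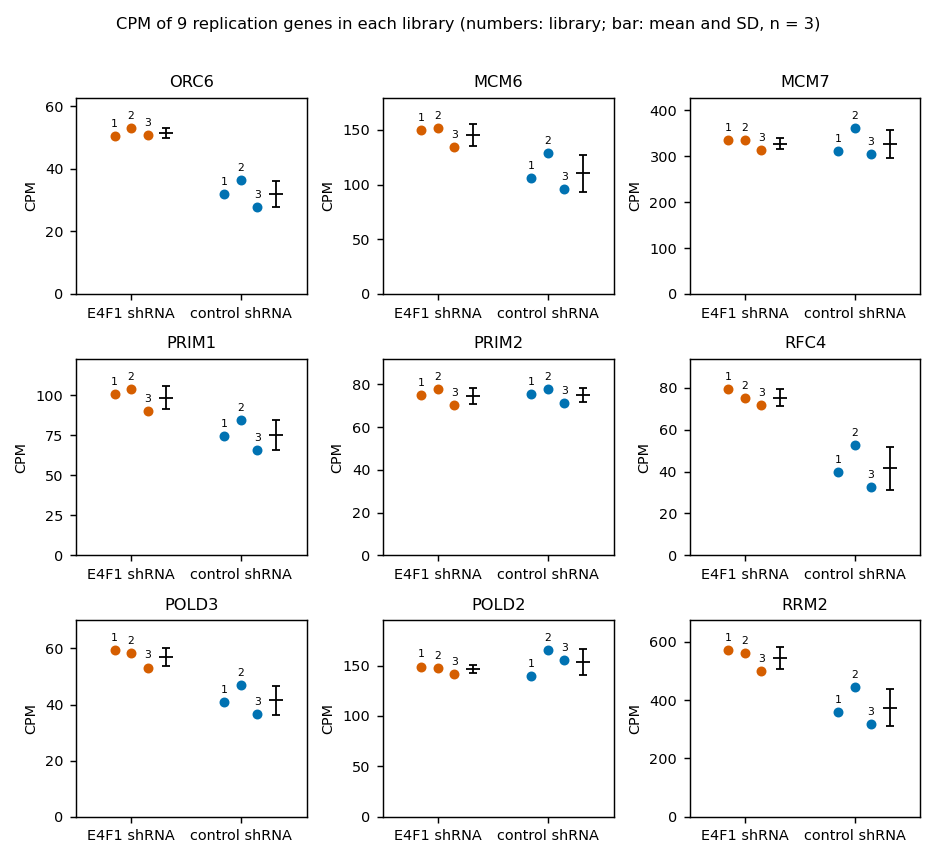
CPM of 9 replication genes in each library, E4F1 shRNA left and control shRNA right, with the library number at each point and the mean and SD (n = 3) beside them; each axis starts at 0. The groups are apart for ORC6, MCM6, PRIM1, RFC4, POLD3 and RRM2 and overlap for MCM7, PRIM2 and POLD2, and control library 2 is the highest control in all 9.

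Among the enzymes of Okazaki fragment maturation, which remove primers and seal nicks on the lagging strand, FEN1 passed by a narrow margin. FEN1, the flap nuclease, had 176, 194 and 173 CPM in E4F1 shRNA cells and 153, 176 and 151 CPM in control cells, so its groups overlapped, and it was the called member in which they did (log2 fold change 0.18 ± 0.06 SE, adjusted p = 0.0496, edgeR). Its call was lost in 7 of 16 alternatives. LIG1, the ligase, had 97.8, 99.0 and 93.3 CPM in E4F1 shRNA cells and 87.7, 97.3 and 85.2 CPM in control cells, and RNASEH2A, the catalytic subunit of ribonuclease H2, had 32.6, 34.6 and 33.2 CPM in E4F1 shRNA cells against 30.0, 33.9 and 27.8 CPM in control cells; neither passed.

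RPA coats single-stranded DNA at the fork, and 1 of its 3 subunits passed. RPA3, the smallest, had 87.8, 102 and 92.9 CPM in E4F1 shRNA cells, against 84.3, 81.3 and 73.7 CPM in control cells (log2 fold change 0.24 ± 0.07 SE, adjusted p = 0.012, edgeR), with E4F1 shRNA library 1 close to control library 1. RPA2 had 85.7, 83.2 and 81.0 CPM in E4F1 shRNA cells against 70.5, 80.0 and 73.0 CPM in control cells (0.16 ± 0.06 SE, adjusted p = 0.0574, edgeR). RPA1, the large subunit, had 162, 167 and 161 CPM in E4F1 shRNA cells against 149, 159 and 142 CPM in control cells (0.13 ± 0.05 SE, adjusted p = 0.094, edgeR). The groups did not overlap in either gene that missed the threshold.

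Of the enzymes of nucleotide supply, 2 of 3 were higher. RRM2 (chr2:10120698-10131419, GRCh38), the ribonucleotide reductase subunit that is made in S phase, had 571, 563 and 501 CPM in E4F1 shRNA cells, against 360, 444 and 319 CPM in control cells. The lowest E4F1 shRNA library lay above control library 2, and RRM2 was 1.46-fold higher (log2 fold change 0.54 ± 0.09 SE, adjusted p = 0.000213, edgeR). RRM1, its partner subunit, had 288, 293 and 273 CPM in E4F1 shRNA cells against 230, 258 and 212 CPM in control cells (1.22-fold; 0.29 ± 0.06 SE, adjusted p = 0.00292, edgeR). TYMS, which makes the thymidine nucleotide, had 900, 898 and 866 CPM in E4F1 shRNA cells against 811, 862 and 780 CPM in control cells; the groups did not overlap but the difference did not pass (1.09-fold; 0.12 ± 0.05 SE, adjusted p = 0.106, edgeR). TYMS lies opposite ENOSF1, and its reads were taken from its own strand.

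The members were then set against each other on a scale centred within each library. Each value is a member's log2 deviation from its own mean of the 6 libraries, minus the median deviation of the 54 members in that library. The shift of the median member is thereby taken out. This is a description with no test. ORC6 stood at 0.177, 0.272 and 0.262 on this scale in E4F1 shRNA libraries, against -0.197, -0.181 and -0.33 in control libraries. RFC4 stood at 0.374, 0.316 and 0.31 in E4F1 shRNA libraries against -0.337, -0.099 and -0.56 in control libraries. MCM7 went the other way, at -0.11, -0.083 and -0.12 in E4F1 shRNA libraries against 0.084, 0.121 and 0.11 in control libraries. In 14 members, against 6.22% of all genes tested put on the same scale, every E4F1 shRNA library was above every control library: ORC6, GMNN, MCM4, MCM6, MCM10, GINS2, WDHD1, PRIM1, POLD3, RFC3, RFC4, RFC5, RRM1 and RRM2. In 13, against 42.2% of all genes tested, every E4F1 shRNA library was below: MCM7, GINS1, GINS3, POLA2, PRIM2, POLD1, POLD2, POLE3, LIG1, RNASEH2A, RPA1, RPA2 and TYMS. In the other 27 the groups overlapped. Centring on the median member puts similar numbers of members above and below by construction, and the median member was itself higher in E4F1 shRNA cells, so these counts give the order among the members and nothing about their direction.

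A comparison of levels between genes needs a length, taken here as the union of all annotated exons of a gene. That union can be longer than the transcripts present, so the order of genes is approximate. MCM5 and MCM2 had mean levels of 135 and 133 CPM in E4F1 shRNA cells, and lengths of 7.34 and 4.9 kilobases set them apart. On the scale of CPM per kilobase of exon, averaged over 3 libraries, the MCM ring subunits stood in the order MCM3 (78.5 in E4F1 shRNA cells and 70.3 in control cells), MCM7 (74.7 in E4F1 shRNA cells and 74.4 in control cells), MCM4 (50.6 in E4F1 shRNA cells and 41.7 in control cells), MCM6 (35.3 in E4F1 shRNA cells and 26.8 in control cells), MCM2 (27.2 in E4F1 shRNA cells and 24.6 in control cells) and MCM5 (18.4 in E4F1 shRNA cells and 16.3 in control cells). MCM3 and MCM7 were neighbours whose order changed between the groups. TYMS was the highest member at 359 CPM per kilobase in E4F1 shRNA cells and 331 in control cells, PCNA followed at 262 in E4F1 shRNA cells and 218 in control cells, and RRM2 at 102 in E4F1 shRNA cells and 70.3 in control cells. POLD4 was the lowest at 0.514 in E4F1 shRNA cells and 0.64 in control cells. Within primase, PRIM1 stood at 40.5 CPM per kilobase in E4F1 shRNA cells against 30.8 CPM per kilobase in control cells, and PRIM2 at 16 in both groups.

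**Figure D5:**
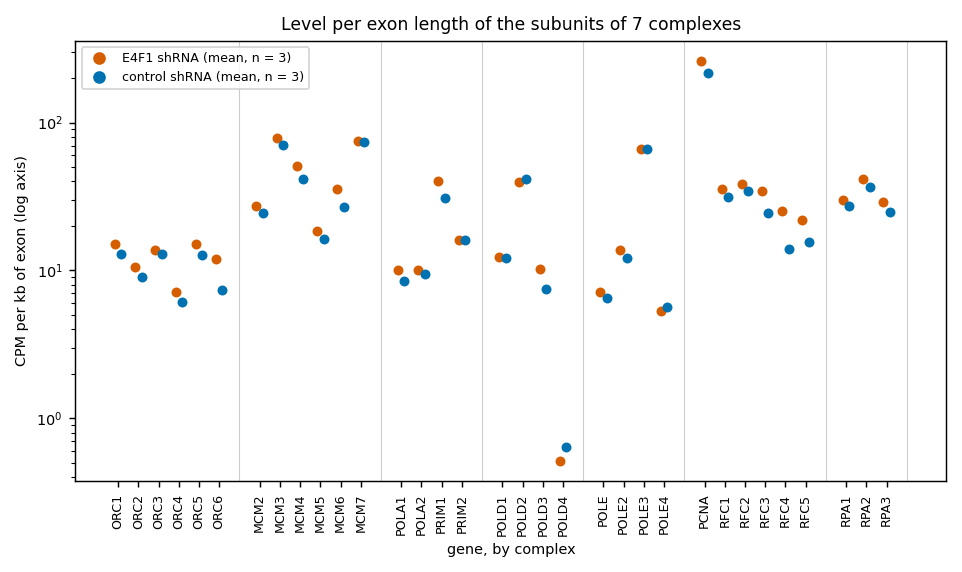
Mean level (CPM per kilobase of exon, log axis, n = 3 libraries) of the subunits of 7 complexes in E4F1 shRNA (orange) and control shRNA (blue) cells. Subunits of a complex differ several-fold on this scale, which divides by the union of all annotated exons. PCNA is the highest gene drawn (262 in E4F1 shRNA and 218 in control cells) and POLD4 the lowest (0.514 in E4F1 shRNA and 0.64 in control cells).

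Promoter windows of RefSeq (GRCh38.p14) were found for 48 of the 54 members and searched on both strands for 3 short motifs whose matches may overlap. The E2F core was searched as the word TTCCCGC, or the word TTCGCGC, or the word TTGCCGC, or the word TTGGCGC, and 34 of 48 members (70.8%) had it in at least 1 window, against 20.5% of 15843 protein-coding genes with windows of the same length and 25.1% of the 10391 of them that were tested. A CCAAT box was in 28 of 48 members (58.3%), against 42.1% of the protein-coding genes and 43.1% of those tested. TGACGT, the core of the E4F1 binding site in the adenovirus E4 promoter, was in 8 of 48 members (16.7%), against 11.7% of the protein-coding genes and 13.8% of those tested. A match is a description and not a site of binding. Within the members, 15 of the 34 with the E2F core were higher in E4F1 shRNA cells (median log2 fold change 0.17) and 8 of the 14 without it (median 0.21). Over the 10391 tested genes with windows the medians were 0.034 with the E2F core and -0.008 without it. Of the 8 with TGACGT, 6 were higher (median 0.24), and of the 40 without it, 17 (median 0.17). Over the same 10391 tested genes the medians were 0.003 with TGACGT and 0.002 without it.

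The stretches around the E2F core nearest the start are shown for 5 members that rose (MCM6, PRIM1, WDHD1, RFC5 and RFC3) and for 2 of their partners that did not pass (MCM7 and RFC2), because the same letters stand near the start in both kinds; all are in RefSeq promoter windows on GRCh38.p14, read on the strand of the gene, and capitals mark the core. The MCM6 stretch is chr2:135876511-135876540, minus strand. The MCM7 stretch is chr7:100101384-100101413, minus strand. The PRIM1 stretch is chr12:56752329-56752358, minus strand. The WDHD1 stretch is chr14:55027059-55027088, minus strand. The RFC5 stretch is chr12:118016707-118016736, plus strand. The RFC3 stretch is chr13:33818083-33818112, plus strand. The RFC2 stretch is chr7:74254386-74254415, minus strand.
MCM6: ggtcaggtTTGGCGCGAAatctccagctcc
MCM7: ggcgacgtTTCGCGCCAAtttcggttggcc
PRIM1: cggccgtgctgTTCCCGCcaattcctgtgg
WDHD1: cgagccgaagcGCGGGAAgcagctcttgtg
RFC5: gttgcttttgcGCGCGAActgtaagtgcca
RFC3: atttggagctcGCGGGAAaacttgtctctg
RFC2: tgcctcgggtgGCGGGAAgaggaggcgcga
MCM6 (higher in E4F1 shRNA cells) and MCM7 (log2 fold change 0.00) each had a pair of overlapping matches on opposite strands, at 89 and 86 bases before the start in MCM6 and at 8 and 5 bases before it in MCM7. MCM6 had another such pair, at 151 and 148 bases before the start. MCM7 had a further match 187 bases before the start, and in another window matches 164 and 140 bases before the start of that window's transcript. RFC2, which did not pass, had its core 5 bases before the start, and RFC3, which rose, 55 bases before it.

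The letters CTTATCT, a 7-base word found in an earlier scan of 3′ untranslated regions in these data, were looked for in the members' annotated 3′ untranslated regions. They were in 5 of 54 members (9.26%: ORC2, ORC6, MCM5, WDHD1 and TYMS), against 12.6% of 13101 genes tested. Of those 5, 3 were higher in E4F1 shRNA cells, against 24 of the 49 without the word, with medians of 0.23 and 0.18. Over the 13101 tested genes with an annotated 3′ untranslated region the medians were 0.14 with the word and -0.02 without it. The places in the 3 members that were higher are shown, with the word in capitals; it is a description, and the word was chosen with these data known.
ORC6: acagagcgagaCTTATCTcataaataaat
ORC2: ctcactcatttCTTATCTtgtaaacctct
WDHD1: caagaatattcCTTATCTggtgatgatta

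Base composition moved with the fold change. GC content was taken from the longest annotated transcript of each gene, which may not be the one expressed. Across the 54 members, its Spearman correlation with the log2 fold change was -0.43, as a description across genes that share the 6 libraries. Across 15720 genes tested the correlation was -0.35. The median GC content was 43.3% in the members that were higher and 51.5% in those that did not pass. With an offset for GC content in the edgeR fit 31 members were higher, against 12.7% of all genes tested. In that fit 21 of the 27 calls were kept, and those of MCM8, ORC2, ORC4, ORC5, POLA1 and RFC1 were lost. Calls of CDT1, LIG1, MCM2, MCM3, MCM5, ORC1, POLD1, POLE, RFC2 and RPA2 were added. RFC4 (log2 fold change 0.82), ORC6 (0.68) and RRM2 (0.52) kept their size in that fit. The part of GC content in the members' changes beyond this was not tested.

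A further 39 genes of replication outside the 54 were read in the same fit. Of these, 23 were higher in E4F1 shRNA cells, 3 were lower and 13 did not pass (edgeR), with a median log2 fold change of 0.22. That is 59.0% higher, while of all genes tested 14.4% were higher and 14.4% lower. The count of those higher was 14 without control library 3, 15 without E4F1 shRNA library 1 and 12 without E4F1 shRNA library 2. Of all genes tested, 10.4%, 10.8% and 9.94% were higher in those fits, in the same order. The 3 lower genes were 1 without control library 3 or E4F1 shRNA library 1. DCK, the kinase that salvages deoxycytidine, had 85.9, 88.9 and 83.5 CPM in E4F1 shRNA cells, against 48.0, 46.8 and 39.9 CPM in control cells, a larger change than in any of the 54 (1.92-fold; log2 fold change 0.94 ± 0.07 SE, adjusted p = 5.03e-08, edgeR). RNASEH2B, a partner of RNASEH2A in ribonuclease H2, had 29.1, 30.2 and 27.6 CPM in E4F1 shRNA cells against 17.3, 16.5 and 12.5 CPM in control cells (1.88-fold; 0.91 ± 0.10 SE, adjusted p = 6.21e-06, edgeR). In both genes control library 2 lay with the other controls. DNMT1, which copies DNA methylation at the fork, had 250, 247 and 233 CPM in E4F1 shRNA cells against 169, 206 and 161 CPM in control cells (0.44 ± 0.07 SE, adjusted p = 0.00024, edgeR). FBXO5, an inhibitor of the anaphase-promoting complex, had 92.8, 90.6 and 87.5 CPM in E4F1 shRNA cells against 66.7, 75.9 and 60.7 CPM in control cells (0.41 ± 0.07 SE, adjusted p = 0.000373, edgeR). The 3 lower genes, named here after their values were seen, were POLDIP2 (log2 fold change -0.28), which binds polymerase delta, LRWD1 (-0.23), which binds the origin recognition complex, and RRM2B (-0.19), the reductase subunit induced by p53.

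Genes of mitosis moved beside the replication genes, library by library. Of 26 mitosis markers 17 were higher and 0 lower in E4F1 shRNA cells (edgeR; 0 also at an unadjusted p under 0.05), with a median log2 fold change of 0.27. That is 65.4% higher, while of all genes tested 14.4% were higher and 14.4% lower. Their summed level was 8952, 8811 and 8165 CPM in E4F1 shRNA cells, against 7076, 7981 and 6418 CPM in control cells, so control library 2 was again the highest control and control library 3 the lowest. MKI67, the proliferation marker, had 962, 898 and 856 CPM in E4F1 shRNA cells and 662, 824 and 587 CPM in control cells (log2 fold change 0.39 ± 0.09 SE, adjusted p = 0.00312, edgeR). CCNB1, the mitotic cyclin, had 420, 433 and 385 CPM in E4F1 shRNA cells against 375, 424 and 368 CPM in control cells (0.09), and PLK1, a mitotic kinase, had 120, 120 and 114 CPM in E4F1 shRNA cells against 106, 135 and 108 CPM in control cells (0.02); neither passed. The part of cell cycle phase in the levels of the replication genes was not tested.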

How the data were processed

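Each library's deposited table gives unnormalized counts of reads for each gene as STAR writes them. The submitters' processing notes name bcl2fastq 2.20, STAR 2.5.1b and the build GRCh38, with the annotation release not given in the sources used here. The reverse-strand counts were used, since that column held 14947085 to 16892139 reads in genes per library against 885046 to 977742 in the forward-strand column. Lines for reads assigned to no gene made up 27.1% to 31.7% of a table and were set aside before scaling and testing. Columns of other samples numbered 0. Of 58219 identifiers, 57878 matched GENCODE 29 without the version and 55050 with it.

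Counts were tested with edgeR 4.0.16 (limma 3.58.1, R 4.3.3): filterByExpr by group, TMM scaling, the two-sided quasi-likelihood F-test on group alone, Benjamini-Hochberg over the 15765 genes tested, threshold 0.05. CPM are TMM-scaled. Fold changes divide E4F1 shRNA by control shRNA, and log2 fold changes carry the fitted SE. Log2 levels of the members are taken from CPM with no prior count. A prior count of 2 was used for the GC offset, the correlations between libraries and the principal component. An exact permutation test of 3 against 3 cannot go below p = 0.1 and was not used. The E4F1 shRNA against control shRNA fit was also run on simulated counts drawn from the means and dispersions of these 6 libraries (15579 genes, 200 of them changed). It recovered 40.3% of the genes changed 1.25-fold, 80.3% of those changed 1.5-fold and 89.4% of those changed 2-fold, and called 8 unchanged genes. Far fewer genes were changed there than the 4550 called in these libraries, which makes the adjusted threshold stricter in the simulation. The shares recovered are therefore not the shares to be taken for the members. Many members changed less than 1.25-fold, so a member that did not pass may still differ by that much. The members and lists were chosen with earlier results of these data known. Values per library are printed in each role group for up to 3 called members with the smallest adjusted p and the member highest per kilobase, and for other members where partners are compared; of the further replication genes, the 4 with the smallest adjusted p. Levels per kilobase use the union of exons.

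Alternatives were DESeq2 1.42.0, limma-voom, other scalings and filters, counts that ignore strand, a GC offset, a replicate block and leaving out each library. Of the members, 8 share exon bases with a gene on the same strand, over 20% of them in POLA2, RNASEH2A, POLD4 and RRM2, and such reads count for neither gene. Annotated pseudogene copies exist for 9 members; reads in the copies came to at most 1.38% of the parent's, in DBF4. Promoter windows are from RefSeq (GRCh38.p14), 250 bases before to 50 after a start.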

Additional observations from a re-analysis of the deposited data

How the results depend on the processing

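Of 16 alternatives, none reversed the direction of a called member, and 19 of the 27 member calls were kept in each; the others (FEN1, MCM8, ORC2, ORC4, ORC5, POLA1, RFC1 and RPA3) were lost in at least 1. Leaving out 1 library at a time gave 21 to 43 members higher, the highest without control library 2, 0 lower, a median member log2 fold change of 0.14 to 0.27, 3031 to 5370 genes called against 4550 (lowest without E4F1 shRNA library 2), 12 to 28 of the further replication genes higher, 1 to 3 of them lower, and an E4F1 log2 fold change of -2.63 to -2.45. Of all genes tested, 9.94% to 17.6% were higher in the fits that leave out 1 library. Without a low-count filter 32 members were higher, with DESeq2 26, with limma-voom 28, with the GC offset 31 and ignoring strand 27. In those fits 6.87%, 12.5%, 14.3%, 12.7% and 14.0% of all genes tested were higher, in the same order.

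The labels do not say that libraries of the same number were handled together. Deviations of same-numbered libraries correlated at 0.00704, 0.0471 and 0.0477, and those of differently numbered libraries at -0.108 to 0.077. With 3 libraries centred within each group these values cannot settle whether the numbers are pairs, which remains unknown. With the replicate block 4865 genes and 34 members were called, the 7 added members being CDC6, MCM3, MCM5, ORC1, RFC2, RPA2 and TICRR. With the block and the GC offset 33 members were higher. In those fits 15.3% and 13.2% of all genes tested were higher, in the same order. Depth limits POLD4, at as few as 19 reads.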
